A study of Mus musculus with 11 samples.

Results

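The effect of dietary lipid on the whole retina was examined by adding up, for each mouse, the transcripts of every cell, with no division into cell classes, and comparing pups nursed on ω-6 with pups nursed on ω-3 long-chain polyunsaturated fatty acids (LCPUFA). Every cell with more than 300 genes detected entered, which gave 11080 cells from 5 mice out of 20033 cells from 11 mice in the series. All 5 mice were wild-type C57BL/6J pups made hyperglycemic with streptozotocin (STZ), a toxin of pancreatic beta cells, as a model of the first, vessel-poor phase of retinopathy of prematurity, and retinas were taken on postnatal day 10 (P10). Their nursing dams ate matched feeds of equal calories. One held ω-6 arachidonic acid without docosahexaenoic or eicosapentaenoic acid (3 pups), and the other held those ω-3 lipids without arachidonic acid (2 pups). The pups of both groups were littermates divided between a pair of cages, so that diet cannot be told apart from cage and dam, and neither diet group had a control without STZ. The sample descriptions of ω-6 mice 2 and 3 left out STZ, whereas their characteristics named it.

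LCPUFAs are building blocks of neuronal membranes, and docosahexaenoic acid is especially dense in photoreceptor discs. Photoreceptors are among the most energy-demanding cells of the body and make ATP both by glycolysis and by oxidative phosphorylation, in which complexes I to IV of the inner mitochondrial membrane pass electrons to oxygen and complex V uses the resulting proton gradient to form ATP. Most subunits of these complexes are encoded in the nucleus and a few in the mitochondrial genome, and polyunsaturated fatty acids also act on transcription through the PPAR and SREBP pathways of lipid metabolism.

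The ω-3 libraries held 5672451 and 6516478 unique molecular identifiers (UMIs, each counting 1 captured transcript) and the ω-6 libraries 5067803, 6229195 and 4356305. The number of cells was 2390 and 2560 on ω-3 and 2618, 2169 and 1343 on ω-6, so the third ω-6 mouse had the fewest cells. Levels below are UMIs per 1000000 (CPM) after library scaling, and every log2 change is ω-6 minus ω-3. The 5 mice were alike, with Pearson correlations across genes of 0.95 to 0.97 between any pair, and they did not group by diet. The first principal component carried 49.2% of the variance of the 500 most variable genes and put the second mouse of each diet apart from the other 3. Its largest weights were those of the sex-linked Tsix (-0.269), Xist (-0.214), Ddx3y (0.147) and Eif2s3y (0.135). Other genes followed from 0.0857 downward in size, many of them pseudogenes such as Rpl21-ps13 and Gapdh-ps14, so the component was not made of sex-linked genes alone. Xist, the RNA of the inactive X chromosome, was at 681 and 1.66 CPM on ω-3 and at 712, 1.96 and 670 CPM on ω-6. The Y-linked Ddx3y ran the opposite way in the same mice. Both diets therefore held mice of both patterns. Between 18 and 52 cell barcodes were shared by any pair of the 5 libraries.

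No gene passed an adjusted p of 0.05 among the 18821 genes tested with edgeR's quasi-likelihood test (called 0%), and the smallest adjusted p was 0.636. Without adjustment 1328 genes (7.06%) had a p under 0.05, of which 691 (3.67%) were higher and 637 (3.38%) lower on ω-6. DESeq2 on the same sums gave an adjusted p to 2401 genes and called 16 higher and 7 lower, and limma-voom called 0. The DESeq2 calls held genes described below: Ttr, mt-Rnr1, mt-Rnr2, Gm28438, mt-Nd3, Cox5a, Ndufc2, Ndufa4 and Psmb4 higher, and AC161763.1, Malat1, Egr1, Dennd4a and Rorb lower. A plainer count asked whether the mice of the diets overlapped. All 3 ω-6 mice lay above both ω-3 mice for 2222 genes (11.8%) and below both for 2471 genes (13.1%). The median gene differed by 0.003 on the log2 scale. In what follows a member is said to be separated when the mice of the diets did not overlap, which is a description and not a test, and the counts are read against these backgrounds. As RNA of all cells was summed, a change in the number of cells of a type cannot be told apart from a change in RNA per cell.

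Genes of oxidative phosphorylation leaned to one side. Of the 37 tested nuclear genes for complex I, which takes electrons from NADH, 37 had a positive log2 change and 27 were separated (73% against the 11.8% of all genes), none in the other direction. Of 40 tested genes for complexes II to V and cytochrome c, 39 had a positive log2 change and 33 were separated (82.5%), again none below. The median log2 change was 0.28 for complex I and 0.29 for complexes II to V. Complex I genes took 0.512% and 0.5004% of all UMIs on ω-3 and 0.636%, 0.556% and 0.600% on ω-6, and those of complexes II to V took 1.07% and 1.01% against 1.25%, 1.18% and 1.22%. The differences were small, and no single member passed edgeR's test, while DESeq2 called Cox5a (adjusted p = 0.00208), Ndufc2 (0.0115) and Ndufa4 (0.0207). For the shares, an exact permutation test of 3 against 2 mice cannot give a p below 0.2.

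Among the subunits, Cox5a and Ndufc2 had the smallest p of their lists. Cox5a, a nuclear subunit of cytochrome c oxidase (complex IV; GRCm38 chromosome 9), was at 152 and 155 CPM on ω-3 and at 224, 232 and 234 CPM on ω-6 (log2 change 0.58 ± 0.13 SE, edgeR adjusted p = 0.682). The mice within each diet were closer to each other than the diets were. Ndufc2, an accessory subunit of complex I, was at 117 and 118 CPM on ω-3 and at 172, 166 and 192 CPM on ω-6 (log2 change 0.59 ± 0.13 SE). Ndufa4, which works in complex IV despite its name, was at 399 and 440 CPM against 669, 542 and 677 CPM. Cox7c, another complex IV subunit, was at 265 and 282 CPM against 394, 343 and 409 CPM. Cycs, the mobile electron carrier cytochrome c, was at 112 and 134 CPM against 144, 160 and 167 CPM. The catalytic subunit of complex II, Sdha, had a log2 change of 0.44 and was separated, and so was Uqcrb of complex III at 0.44. The members nearest to no difference were Uqcr10 of complex III at -0.01 and Ndufa10 of complex I at 0.04, whose mice overlapped. The abundant Cox8a was at 1000 and 951 CPM on ω-3 and at 1148, 1114 and 1128 CPM on ω-6, a difference of only 0.21 on the log2 scale.

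**Figure D1:**
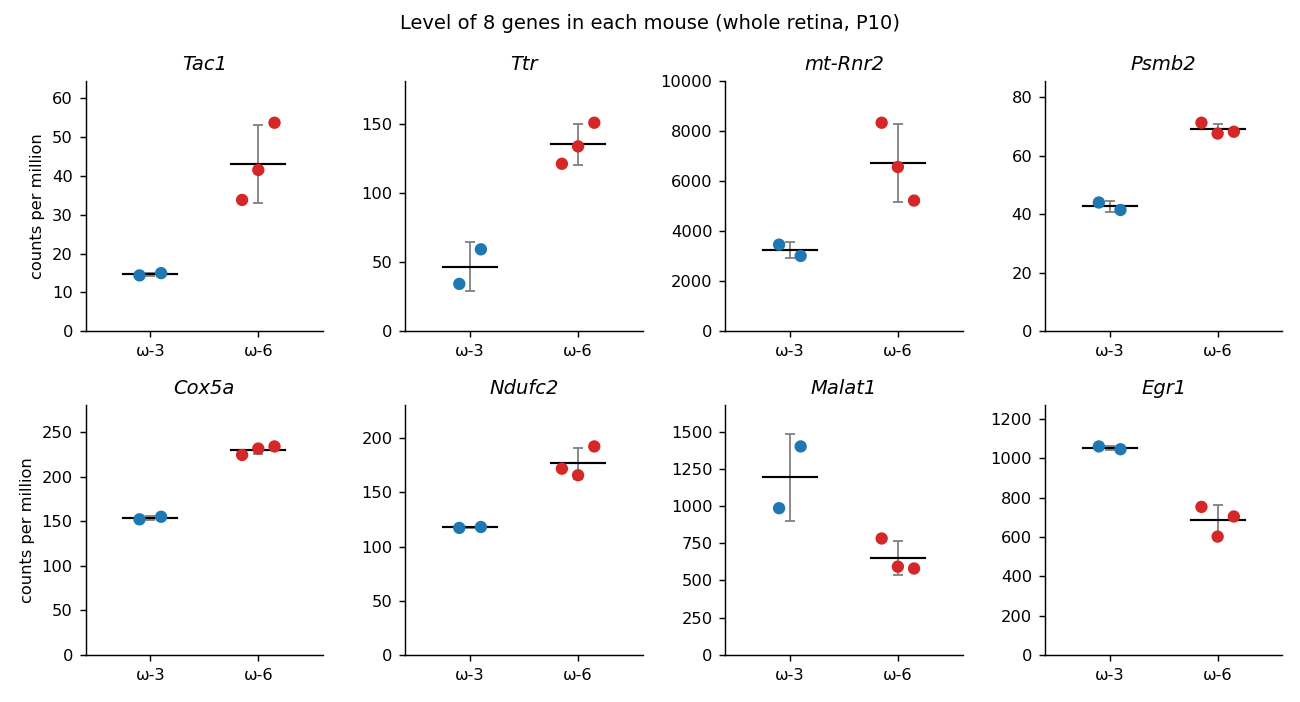
Level of 8 genes in each mouse, in CPM on an axis from 0, with blue points for the 2 ω-3 mice and red points for the 3 ω-6 mice; black lines are means and gray bars SD. Tac1, Ttr, mt-Rnr2, Psmb2, Cox5a and Ndufc2 were higher in every ω-6 mouse than in either ω-3 mouse, and Malat1 and Egr1 lower; edgeR called none of the 8, and DESeq2 called all but Tac1 and Psmb2.

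The mitochondrial genome's own transcripts leaned the same way. Of its 13 protein genes all had a positive log2 change and 7 were separated, with a median of 0.28 and a range from 0.03 for mt-Nd5 to 0.95 for mt-Atp8. mt-Co2, a core subunit of complex IV, was at 7564 and 7772 CPM on ω-3. It was at 8640, 10186 and 10505 CPM on ω-6. mt-Nd3, a complex I subunit, was at 805 and 935 CPM against 1274, 1256 and 1211 CPM. Their summed share was 5.82% and 5.86% on ω-3 and 5.87%, 6.98% and 7.28% on ω-6, so the first ω-6 mouse was barely above the ω-3 mice. The ribosomal RNAs of the mitochondrion stood further apart than its messenger RNAs. mt-Rnr1, the small-subunit rRNA, was at 1019 and 902 CPM on ω-3 and at 2573, 2204 and 1569 CPM on ω-6 (log2 change 1.14 ± 0.20 SE, edgeR adjusted p = 0.682). mt-Rnr2, the large-subunit rRNA, was at 3464 and 3012 CPM against 8343, 6571 and 5227 CPM (1.05 ± 0.18 SE). The highest rRNA level was in the first ω-6 mouse, in which the summed share of the protein genes was lowest among the ω-6 mice. Of 17 mitochondrial tRNA genes tested 8 were separated, all higher, mt-Tn among them at 36.7 and 32.6 CPM against 70.0, 57.2 and 53.7 CPM. Gm28438, a pseudogene on chromosome 1 that copies mitochondrial sequence, was also higher at 561 and 612 against 975, 888 and 877 CPM, but it can share reads with the mitochondrial genes it resembles and is uncertain.

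Nuclear respiratory factor 1 (NRF1) is a known activator of nuclear genes for mitochondrial proteins, and its motif was looked for with 5 others in promoters. The 8 letters GCATGCGC, searched on both strands from 250 bases before to 50 bases after the start of each gene (RefSeq, GRCm38.p6), were present in 8 of 31 genes for complexes II to V with a promoter sequence (25.8%), in 3 of 33 complex I genes (9.1%), in 2 of 25 proteasome genes (8%) and in 641 of 11679 genes tested (5.5%). Among respiratory genes 9 held these letters before their start, of which 6 were separated and 3 (Atp5g2, Ndufa8 and Sdhb) overlapped. With or without the letters, 73% of all tested complex I genes and 82.5% of those for complexes II to V were separated. The letters therefore did not mark the separated genes. To show the letters, 4 of the separated ones are printed, each over the 250 bases before it with matches in capitals. Where capitals run to 10 letters, matches on both strands overlap. They lie at chr5:108434400-108434649 on the minus strand, chr5:115348959-115349208 on the minus strand, chr6:50566570-50566819 on the minus strand and chr17:56717512-56717761 on the plus strand.
Atp5k: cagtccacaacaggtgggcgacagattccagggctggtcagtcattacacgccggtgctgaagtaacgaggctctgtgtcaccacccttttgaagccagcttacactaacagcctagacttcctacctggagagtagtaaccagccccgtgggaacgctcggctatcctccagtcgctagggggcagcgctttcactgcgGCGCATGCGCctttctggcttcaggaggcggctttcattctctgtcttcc
Cox6a1: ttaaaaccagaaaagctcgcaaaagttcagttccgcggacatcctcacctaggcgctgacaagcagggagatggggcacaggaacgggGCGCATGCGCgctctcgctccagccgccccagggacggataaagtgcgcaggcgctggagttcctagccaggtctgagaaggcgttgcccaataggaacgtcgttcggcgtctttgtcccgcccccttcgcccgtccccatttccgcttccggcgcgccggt
Cycs: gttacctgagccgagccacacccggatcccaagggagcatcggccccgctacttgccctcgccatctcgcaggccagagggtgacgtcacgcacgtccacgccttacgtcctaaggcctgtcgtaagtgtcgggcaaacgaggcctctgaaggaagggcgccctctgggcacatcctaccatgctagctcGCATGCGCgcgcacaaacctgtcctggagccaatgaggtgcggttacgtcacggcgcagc
Ndufa11: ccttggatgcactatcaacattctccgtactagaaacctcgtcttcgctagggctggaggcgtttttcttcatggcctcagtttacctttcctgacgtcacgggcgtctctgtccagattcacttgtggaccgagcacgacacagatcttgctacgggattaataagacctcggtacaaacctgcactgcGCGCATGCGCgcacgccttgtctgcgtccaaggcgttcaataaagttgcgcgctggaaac
Atp5k, an accessory subunit of ATP synthase, was at 299 and 293 CPM on ω-3 and at 399, 345 and 334 CPM on ω-6. Cox6a1 of complex IV was at 409 and 355 CPM against 446, 457 and 509 CPM, and Ndufa11 of complex I at 103 and 95.0 CPM against 123, 122 and 136 CPM. The ETS core CCGGAAGT was in 24% of proteasome, 3% of complex I and 12.9% of complex II to V genes, against 8% of all tested. In the same order the CRE TGACGTCA was in 0%, 9.1% and 6.5% against 3.4%, TATAAA in 12%, 12.1% and 3.2% against 10.2%, the antioxidant-response core TGACNNNGC in 16%, 21.2% and 6.5% against 16.2%, and the Staf core in 0%, 0% and 6.5% against 0.7%. The match is a description of these windows and not a measured binding site, and most separated subunits, Cox5a and Ndufc2 included, do not hold these letters there.

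The pathways that feed the respiratory chain were less one-sided. In the list of the tricarboxylic acid (TCA) cycle and pyruvate entry, 9 of 21 tested genes were separated and higher and 3 separated and lower, with a median log2 change of 0.20. Mdh1, a cytosolic malate dehydrogenase, was at 300 and 352 CPM on ω-3 and at 391, 464 and 464 CPM on ω-6, and Suclg1 of succinyl-CoA synthetase was at 113 and 108 CPM against 135, 144 and 144 CPM. The 3 lower ones were Pcx, pyruvate carboxylase, at -0.30, Pdk1, a kinase that restrains pyruvate dehydrogenase, at -0.24, and Dlst at -0.11. In glycolysis only Aldoa and Gapdh of 17 genes were separated, which is 11.8% and equal to the background, although 15 of the 17 had a positive log2 change. Gapdh was at 1862 and 1860 CPM against 1930, 2246 and 2310 CPM.

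The proteasome, the complex that degrades ubiquitin-tagged proteins, showed as even a lean. Of 30 subunits tested 29 had a positive log2 change and 23 were separated (76.7%), none below, with a median of 0.27. Psmb2, a beta subunit of the catalytic core, was at 44.0 and 41.4 CPM on ω-3 and at 71.2, 67.5 and 68.1 CPM on ω-6 (log2 change 0.69 ± 0.14 SE, edgeR adjusted p = 0.682). Psmb4, another core subunit, was at 133 and 112 CPM against 174, 171 and 195 CPM. The regulatory subunit Psmd11 was the only member at or under zero, at -0.01. The cytosolic ribosome leaned less. Of 79 ribosomal protein genes 63 had a positive log2 change and 14 were separated (17.7%), all higher, but the median was 0.06, from 0.02 without the first ω-6 or the second ω-3 mouse to 0.09, and the summed share overlapped, at 4.99% and 4.69% on ω-3 and 5.09%, 4.75% and 4.44% on ω-6. Among 14 heat-shock genes 5 were separated and higher, led by Hspa5, the chaperone of the endoplasmic reticulum, at 203 and 210 CPM against 296, 282 and 263 CPM, and among 15 genes of the integrated stress and unfolded-protein responses 5 were, Sqstm1 and Trib3 among them. Antioxidant genes split, with 6 of 22 separated and higher and 2 lower: Txn1, thioredoxin, was at 80.8 and 81.3 CPM against 103, 116 and 131 CPM, and Srxn1, sulfiredoxin, at 50.2 and 38.2 CPM against 22.8, 29.6 and 34.2 CPM. In the hypoxia list 5 of 18 were separated and higher and 2 lower, and Ddit4, an inhibitor of mTOR signaling, was at 64.1 and 63.9 CPM against 78.6, 84.5 and 85.9 CPM. Of 20 clock genes 4 were higher and 3 lower (20% and 15%), and of 24 cell cycle genes 3 were higher and 1 lower (12.5% and 4.17%). Among all genes these shares were 11.8% and 13.1%.

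**Figure D2:**
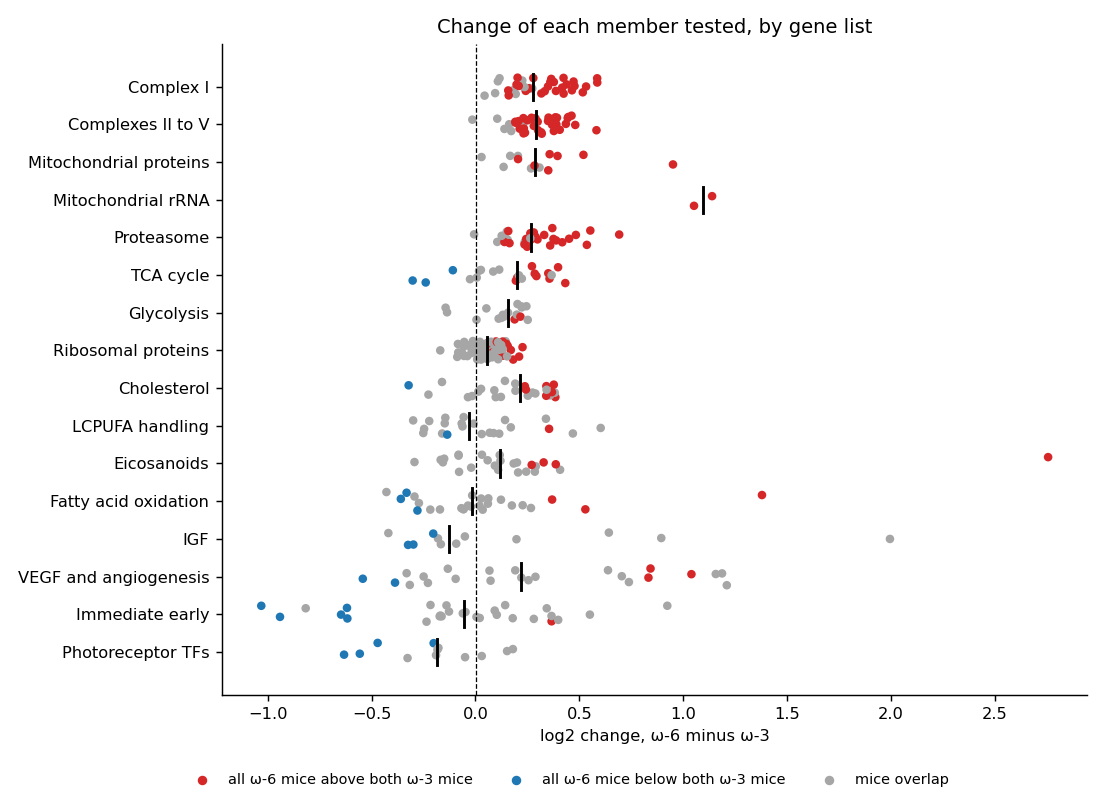
Log2 change, ω-6 minus ω-3, of each tested member of 16 gene lists; red members were higher in all 3 ω-6 mice than in both ω-3 mice, blue lower, gray overlapped, black bars are list medians and the dashed line is the median of all genes. Members of complexes I to V and the proteasome lie almost wholly right of 0, whereas LCPUFA handling and fatty acid oxidation are centered near 0.

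Gene span moved with these results. Protein-coding genes were divided into 5 equal bins by the distance from the first to the last base of the gene (GENCODE M21, GRCm38). In the bin of the shortest genes 20.8% of genes were separated and higher on ω-6 and 6.9% separated and lower, and in the bin of the longest genes the order was turned, with 6.8% higher and 20% lower. The median log2 change was 0.10, 0.06, 0.02, -0.05 and -0.10 from the shortest to the longest bin. Coding genes that were separated and higher had a median span of 13799 bases, against 40945 bases for those that were lower and 24335 bases for all tested. Per mouse, the bin of the longest genes took 16% and 17.1% of coding UMIs on ω-3 and 15.2%, 14.9% and 14.6% on ω-6. Subunits of the respiratory chain are short genes, and 18 of 37 for complex I and 24 of 39 for complexes II to V were in the shortest bin. Of these lists, 37 of 37 and 38 of 39 lay above the median of the bin they belonged to, as did 30 of 30 proteasome genes, of which 7 were in the shortest bin. Ribosomal protein genes were as short as any (72 of 79 in the shortest bin), and 20 of 79 lay above the median of their bin. The part of gene span in the result was not tested in any other way.

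**Figure D3:**
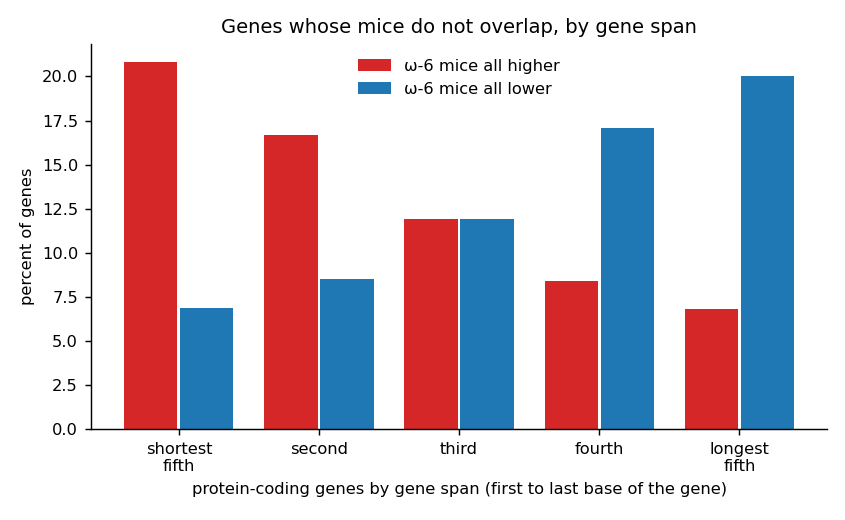
Percent of protein-coding genes whose mice did not overlap between diets, in 5 equal bins of gene span; red bars are genes higher and blue bars genes lower in all ω-6 mice. The red bars step down from 20.8% to 6.8% and the blue bars step up from 6.9% to 20% from the shortest to the longest bin.

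In the lists closest to the diet itself few members were separated. Summed shares were slightly lower on ω-6 for LCPUFA handling, fatty acid oxidation and fatty acid synthesis, but not for eicosanoid genes. Of 22 tested genes that take up, elongate, desaturate or bind LCPUFA, 1 was separated and higher and 1 lower, with a median of -0.03. Their summed share was 0.226% and 0.218% on ω-3 and 0.199%, 0.2% and 0.204% on ω-6, lower in every ω-6 mouse. Elovl4, which elongates very long-chain fatty acids in photoreceptors, was at 281 and 385 CPM on ω-3 and at 325, 260 and 272 CPM on ω-6. Elovl2, an elongase on the way to docosahexaenoic acid, had mice that overlapped at 75.9 and 73.7 against 69.8, 68.6 and 77.5 CPM. Fads1, the delta-5 desaturase, was at 52.6 and 40.9 against 42.0, 48.5 and 52.7 CPM, and Fads2 was too low to be tested. The member that was separated and higher was Fabp3, a fatty-acid-binding protein, at 11.2 and 11.6 CPM against 13.2, 14.7 and 15.9 CPM, and the lower one was the adiponectin receptor Adipor2, at a log2 change of -0.14. Adipor1, its relative, which retains docosahexaenoic acid in the retina, was at 182 and 217 CPM against 212, 195 and 187 CPM. Mfsd2a, the lysophospholipid transporter that carries docosahexaenoic acid across vessel walls, was at 3.55 and 3.78 CPM against 1.40, 12.1 and 2.65 CPM, and its high value was in the same mouse as the high endothelial and pericyte counts described further on.

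Enzymes and receptors of eicosanoids, the signaling lipids made from arachidonic and eicosapentaenoic acid, had 4 of 25 members separated, all higher (16%, against 11.8% of all genes). Their median was 0.12 (0.02 without the second ω-6 mouse and 0.21 without the first ω-3 mouse). The summed share of the list overlapped, at 0.0825% and 0.0876% on ω-3 and 0.0847%, 0.0892% and 0.0857% on ω-6. Among the separated members, Cbr1, a carbonyl reductase that acts on prostaglandins, was at 30.8 and 31.0 CPM against 35.8, 39.4 and 41.2 CPM. The soluble epoxide hydrolase Ephx2 had a log2 change of 0.27. The others were the prostaglandin receptors Ptger1 and Ptger3. Ptger3 was listed at 0 and 0.453 CPM on ω-3 and at 2.40, 1.96 and 0.722 CPM on ω-6, which rests on a handful of UMIs. The enzyme that opens prostaglandin synthesis, Ptgs2, had overlapping mice at 4.56 and 2.87 against 3.40, 6.70 and 2.41 CPM. In fatty acid oxidation 3 of 26 were separated and higher and 3 lower (11.5% each, against 11.8% and 13.1% of all genes). The median was -0.02, and the summed share was 0.0771% and 0.0805% against 0.0741%, 0.0732% and 0.0730%. The transporter of acylcarnitines Slc25a20 was at 23.3 and 25.2 CPM against 31.8, 37.9 and 35.4 CPM, whereas Cpt1a, which makes acylcarnitines, was at 96.9 and 115 CPM against 94.6, 78.9 and 78.7 CPM. Thus the transporter and the enzyme before it stood in opposite directions. The PPAR target Angptl4 was low in all mice and separated, at 2.03 and 1.96 CPM against 4.00, 8.66 and 2.65 CPM.

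Sterol synthesis leaned upward. Of 26 tested genes of cholesterol synthesis and its control by SREBP, 21 had a positive log2 change, 7 were separated and higher (26.9%) and 1 lower, with a median of 0.22 (0.13 without the third ω-6 mouse). Acat2, an acetyl-CoA acetyltransferase at the head of the pathway, was at 59.0 and 69.4 CPM on ω-3 and at 77.6, 89.1 and 84.7 CPM on ω-6, and Cyp51, a lanosterol demethylase, was at 44.8 and 37.2 CPM against 54.6, 49.9 and 51.3 CPM. Hmgcs1, the most abundant member, overlapped, at 96.5 and 114 CPM against 94.4, 147 and 164 CPM, with the first ω-6 mouse below both ω-3 mice. The summed share overlapped too, at 0.107% and 0.118% against 0.110%, 0.130% and 0.130%. Lss, lanosterol synthase, was the separated member that was lower. In fatty acid synthesis Srebf1 alone of 11 genes was separated, at 52.1 and 46.1 against 52.8, 61.9 and 57.1 CPM, whereas the summed share was lower in each ω-6 mouse, at 0.0474% and 0.0476% against 0.0435%, 0.0461% and 0.0464%.

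The genes of smallest p, Tac1 and Ttr, were counted mostly in few cells. Tac1, which encodes the neuropeptide substance P of some amacrine and ganglion cells (chr6:7554879-7565834), was at 14.4 and 14.96 CPM on ω-3 and at 33.8, 41.5 and 53.7 CPM on ω-6 (log2 change 1.55 ± 0.22 SE, edgeR adjusted p = 0.636). Between 74% and 85.9% of its UMIs in each mouse came from only 10 cells. Ttr, the thyroid hormone and retinol carrier transthyretin made by retinal pigment epithelium (RPE), was at 34.3 and 59.4 CPM against 121, 134 and 151 CPM (1.53 ± 0.23 SE, edgeR adjusted p = 0.636). Between 77.1% and 100% of its UMIs came from 10 cells. For comparison, the 10 cells with the most Cox5a held 5.6% to 11.1% of its UMIs and those with the most mt-Rnr2 3.7% to 7.1%. The UMIs of Lhx1, a transcription factor of horizontal cells, and of its divergent neighbor Lhx1os, 124 bases away on chromosome 11, all came from 10 or fewer cells a mouse. Lhx1 had 1 and 6 UMIs on ω-3 and 8, 14 and 44 on ω-6, and Lhx1os was at 0.507 and 1.96 CPM against 5.60, 8.17 and 9.15 CPM. Strand was not stated for the counting, so reads of the pair could be mixed.

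Repeat-like gene models were also higher. Gm10718, on chromosome 9, was at 1.01 and 0.907 CPM on ω-3 and at 18.6, 6.37 and 4.57 CPM on ω-6, and 10 of 10 tested gene models within the first 3100000 bases of that chromosome were separated and higher. These models are near-identical copies, so their counts are not independent and the split among them is uncertain. The first ω-6 mouse was highest in all of them. Rn7sk, the 7SK RNA that restrains transcription elongation, was at 4.23 and 2.42 CPM against 7.60, 16.5 and 15.6 CPM, and Gm24447, annotated as the same class of small RNA, at 2.87 and 1.36 against 6.2, 9.32 and 8.18 CPM. Of the Rn7sk UMIs, 79 of 101 in the second ω-6 mouse and 49 of 65 in the third came from 1 cell, and of those of Gm24447 40 of 57 and 22 of 34. In every other mouse no cell held more than 3 UMIs of either. Adamts13, a protease that cleaves von Willebrand factor, was at 25.2 and 14.96 CPM against 54.0, 35.6 and 49.1 CPM.

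On the lower side, the 12 separated genes of smallest p included transcriptional regulators and a nuclear RNA. Malat1, a long noncoding RNA retained in the nucleus, was at 985 and 1400 CPM on ω-3 and at 782, 593 and 580 CPM on ω-6 (log2 change -0.87 ± 0.18 SE, edgeR adjusted p = 0.682), and the ω-3 mice differed among themselves by more than the 3 ω-6 mice did. AC161763.1, a transcript with no position in the annotation used here, was at 195 and 135 CPM against 95.6, 78.6 and 76.5 CPM. Siah3, of the family of seven-in-absentia proteins, was at 14.5 and 14.3 CPM against 5.60, 7.03 and 4.33 CPM. Zfp462, a zinc finger protein, was at 108 and 110 CPM against 71.6, 72.7 and 67.6 CPM, a tight pair of groups. Zfp36l2, which destabilizes messenger RNAs with AU-rich elements, was at 59.9 and 55.1 CPM against 33.4, 36.0 and 38 CPM. The remaining members were Fam135b, Heg1, Abca8a, Srrm4os, Dennd4a, Ankle2 and Egr1, with log2 changes from -0.62 to -0.85.

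Egr1, an immediate early transcription factor induced by neuronal activity and handling, was at 1060 and 1046 CPM on ω-3 and at 753, 602 and 704 CPM on ω-6 (log2 change -0.62 ± 0.13 SE, edgeR adjusted p = 0.682). Its relatives Egr2 and Egr3 and the related early genes Nr4a3 and Socs3 were separated and lower as well, with Egr3 at 90.3 and 41.2 CPM against 37.6, 28.3 and 30.6 CPM. Of the 28 members 5 were separated and lower and 1 higher (17.9% and 3.57%, against 13.1% and 11.8% of all genes). The median was -0.05, and it was 0.07 without the first ω-3 or the first ω-6 mouse and -0.20 without the second ω-3 mouse. The summed share was lower in every ω-6 mouse, at 0.518% and 0.430% against 0.379%, 0.426% and 0.425%, by a margin that was narrow for the second ω-3 mouse. Jun was the separated member that was higher. Fos overlapped, at 751 and 680 CPM against 585, 726 and 844 CPM.

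Photoreceptor genes were mixed. Of 12 transcription factors of photoreceptor fate, 4 were separated and lower and none higher, with a median of -0.19 that was -0.01 without the second ω-3 mouse and -0.35 without the first. Rorb, a nuclear receptor needed for rod fate, was at 370 and 433 CPM against 304, 264 and 250 CPM, Mef2d at 176 and 202 CPM against 132, 142 and 135 CPM, and Prdm1 and Crx had log2 changes of -0.63 and -0.20. Nrl, the rod determinant, overlapped at 748 and 925 against 1016, 916 and 912 CPM. Rod phototransduction had 2 of 21 genes separated and higher and 1 lower (9.52% and 4.76%, against 11.8% and 13.1% of all genes). Pdc, phosducin, was at 2587 and 3271 CPM against 3868, 3445 and 3874 CPM, while Gucy2e, a guanylate cyclase that restores cyclic GMP after light, was at 70.5 and 99.6 CPM against 66.8, 52.3 and 50.5 CPM. Of 10 cone markers 2 were separated and higher, Pde6h among them at 271 and 244 against 322, 284 and 320 CPM. In axon guidance, which holds mostly long genes (23 of 26 in the bin of the longest genes), 2 of 26 were separated and higher and 4 lower. These were 7.69% and 15.4%, against 11.8% and 13.1% of all genes. The median was -0.14 (-0.03 without the second ω-3 mouse).

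Genes of growth-factor and vessel signaling were examined because the model concerns delayed retinal vascularization. Igf1r, the receptor of insulin-like growth factor 1, was at 227 and 239 CPM on ω-3 and at 194, 175 and 190 CPM on ω-6 (log2 change -0.32 ± 0.13 SE, edgeR adjusted p = 0.682). The gene spans 280842 bases and so belongs to the bin of the longest genes, of which 20% were separated and lower. In the IGF list 3 of 12 tested genes were separated and lower (25%, against 13.1% of all genes) and none higher. The other 2 were Insr, the insulin receptor, at -0.30 and Irs2, a docking protein downstream of both, at -0.20. The list median was -0.13, but 0.09 without the first ω-3 mouse. The summed share overlapped, at 0.0697% and 0.0599% on ω-3 and 0.0547%, 0.0757% and 0.0541% on ω-6. Igf1 itself overlapped, at 20.5 and 40.6 CPM against 19.2, 23.9 and 25.7 CPM. Kdr, the main VEGF receptor, was at 298 and 212 CPM against 185, 199 and 202 CPM, which separated the mice by a narrow margin. Vegfa was at 52.9 and 62.4 CPM against 48.2, 66.7 and 67.2 CPM. Thbs1, an inhibitor of angiogenesis, was at 7.61 and 9.22 CPM against 14.6, 16.2 and 14.2 CPM, and Tspan12, a co-receptor of norrin signaling, was at 8.96 and 6.95 CPM against 12.8, 15.7 and 14.2 CPM. Of all 23 genes of VEGF signaling and angiogenesis 3 were separated and higher and 2 lower (13% and 8.7%, against 11.8% and 13.1% of all genes). Sparc, a matrix glycoprotein, was at 367 and 361 CPM against 296, 587 and 389 CPM, with the second ω-6 mouse above all others. Among regulators of cell survival named for the diets, the mice overlapped for Bcl2, Bcl2l1, Bcl2l11 and Myc.

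The make-up of the libraries differed in the rare cells. Of 5 RPE markers tested 4 were separated and higher on ω-6, although RPE was removed at dissection, and their summed share was 0.00566% and 0.00870% on ω-3 and 0.0155%, 0.0179% and 0.0184% on ω-6. Rpe65, the isomerase of the visual cycle that defines RPE, had 2 and 2 UMIs on ω-3 and 10, 8 and 10 on ω-6, and Best1 and Lrat were too low to be tested. Erythroid genes ranged from 0.000599% and 0.0459% on ω-3 to 0.00193%, 0.131% and 0.203% on ω-6, so the groups overlapped and the log2 median of 2.31 over 5 genes came from 2 ω-6 mice; it was 7.79 without the second ω-3 mouse, 1.32 without the first and 1.495 without the third ω-6 mouse. Their alpha-globin Hba-a1 was held almost wholly, at 98.8% or more in every mouse, by 10 cells. Of 4 pericyte markers tested 1, Acta2, was separated, and Rgs5 was at 20.3 and 8.91 CPM against 10.2, 88.4 and 18.3 CPM, high in the second ω-6 mouse alone, without which the pericyte median was -0.35 in place of 1.04. Of 8 endothelial markers 1 was lower, Kdr, and Cldn5 was likewise high in that mouse, at 61.6 CPM. The 10 cells with the most Kdr held 15.1% to 36.4% of its UMIs, against 82.8% to 100% for Cldn5. Kdr was thus spread over more cells, and its level cannot be read as that of endothelial cells alone. Among neurons and glia, 3 of 10 amacrine markers were separated and higher and 1 lower (Pax6 at 228 and 203 against 248, 305 and 291 CPM), 3 of 10 Müller glia markers were lower (Slc1a3 at 417 and 314 against 277, 296 and 299 CPM) and 1 of 10 bipolar markers was lower, while none of 10 rod markers, 8 microglia markers and 4 astrocyte markers was separated. Amacrine markers took 0.110% and 0.120% of UMIs on ω-3 and 0.114%, 0.142% and 0.134% on ω-6. Müller glia markers took 0.216% and 0.168% against 0.136%, 0.174% and 0.166%, so the summed share overlapped. Of these 10 Müller glia markers 7 had a negative log2 change and 3 a positive one. Bipolar markers took 0.187% and 0.209% against 0.168%, 0.179% and 0.141%, lower in each ω-6 mouse. Sncg, a ganglion cell marker, was at 20.8 and 34.8 CPM against 44.4, 70.1 and 50.8 CPM, and from 88.8% to 99.5% of its UMIs came from 10 cells. It was the only separated gene of 10 ganglion cell markers (10%, against 11.8% of all genes). The summed share of ganglion cell markers overlapped, at 0.0277% and 0.0453% on ω-3 and 0.0325%, 0.0573% and 0.0391% on ω-6. RPE genes stayed at or under 0.0184% of UMIs and erythroid genes at or under 0.203% in each mouse, and their part in the respiratory chain and proteasome results was not tested.

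**Figure D4:**
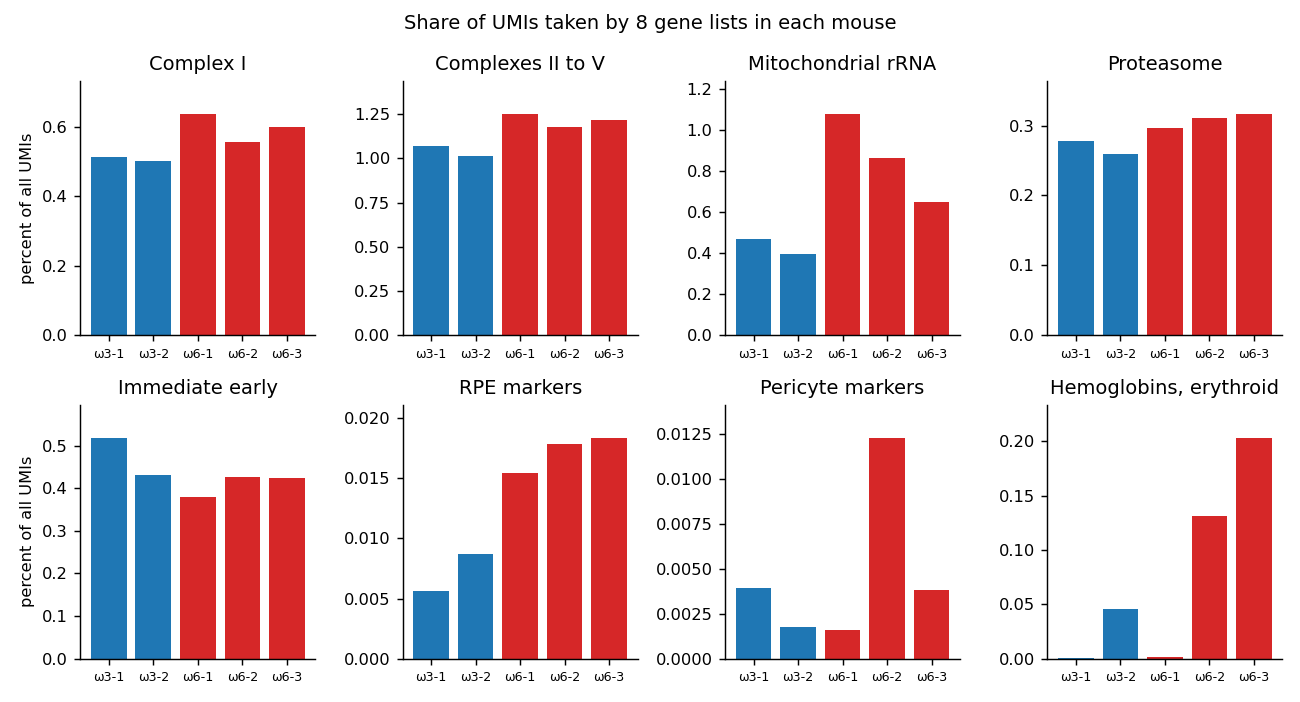
Percent of all UMIs taken by 8 gene lists in each mouse, with axes from 0, blue bars for ω-3 and red bars for ω-6. Respiratory chain, mitochondrial rRNA, proteasome and RPE bars are higher in every ω-6 mouse than in either ω-3 mouse, whereas pericyte and erythroid bars are set by 1 or 2 mice.

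Levels in the other P10 mice of the series place the diet groups. On unscaled CPM, Cox5a was at 204 to 232 in the 3 mice given STZ with no added diet, beside 157 to 159 on ω-3 and 221 to 228 on ω-6. Psmb2 was at 61.6 to 70.8 in the STZ mice, beside 42.1 to 45.8 on ω-3 and 65.0 to 70.3 on ω-6. For these genes, and for Tac1 at 23.4 to 28.7, the STZ mice were above both ω-3 mice. For the mitochondrial protein genes mt-Co2, mt-Cytb and mt-Nd3 the STZ mice lay on both sides of the ω-3 mice. mt-Co2 was at 8543, 3147 and 4488 in the STZ mice, beside 7888 and 7894 on ω-3. mt-Cytb was at 9830, 3403 and 4544, beside 8441 and 8244. mt-Nd3 was at 1139, 609 and 736, beside 839 and 950. mt-Rnr2 was at 4279 to 7779 in the STZ mice, which overlapped the ω-6 range of 4985 to 8232 and lay above the 3060 and 3612 of the ω-3 mice. Egr1 was at 304 to 552 in the STZ mice, lower than in all 5 diet mice, and Igf1r at 173 to 242 spanned both diets. The 3 control mice without STZ were far from all others in mt-Rnr2, at 28190 to 41190, and in Egr1, at 35.5 to 78.9. None of these 6 mice entered the fit, and no test was made of them against the diets.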

How the data were processed

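Retinas of P10 pups were dissociated and single cells were barcoded by inDrop. Per the labels and the study's methods, the authors sequenced the libraries on a NextSeq 500, processed them with bcbio-nextgen and Rapmap against GRCm38 (mm10) with GENCODE M23, collapsed UMIs and dropped barcodes with few reads. They deposited raw UMI counts as 1 matrix of 25311 genes and 20067 barcodes. Cells with over 300 genes were kept, doublets were not removed, and counts were summed per gene and mouse, giving 4356305 to 6516478 UMIs in the 5 diet mice. The ω-6 (3 mice) and ω-3 (2 mice) groups were taken from the sample titles and compared with edgeR 4.0.16 (R 4.3.3; TMM scaling, filterByExpr, quasi-likelihood F-test, two-sided, Benjamini-Hochberg over 18821 genes). The mouse was the replicate, in place of the per-cell test of the study. SEs are the log2 change divided by the square root of F, and SDs in plots are between mice. P-values measure only the spread between these 5 mice.

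The scripts were tested on simulated data with known changes. Named genes were those called, filled to 12 in each direction by the smallest unadjusted p among genes whose mice did not overlap, the genes the study named for the diets, and from each list the 2 most abundant members and the 2 of smallest p, Xist and Y-linked genes, and the first gene of each marker list. Other members, promoters and the cells holding most UMIs of a gene were named after their values were seen. The lists and the comparison were chosen with earlier results of these data known. Gene positions and lengths were matched by symbol to GENCODE M21 on the same build (97.3% of genes tested). Alternatives were DESeq2 1.42.0, limma 3.58.1, other scalings and filters, equal depth, cell means, other groups in the fit, each mouse left out, a replicate block and, chosen after seeing the data, Xist level as a covariate. A few genes that this rule names are not reported here.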

Additional observations from a re-analysis of the deposited data

How the results depend on the processing

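No gene was called higher or lower under 14 of 18 alternatives, and the list medians of complexes I to V, mitochondrial genes, proteasome, TCA cycle and cholesterol genes stayed positive under all of them, between 0.19 and 0.36 for complex I and between 0.14 and 0.34 for the proteasome. DESeq2 called 16 genes higher and 7 lower, with an adjusted p for 2401 genes only, and limma-voom none. The Xist covariate called 7 higher and 4 lower. Without 1 mouse the counts were 0 to 2 higher and 0 lower, the 2 being Gm26870 and Gm10800 without the third ω-6 mouse. A replicate block called 62 higher and 13 lower. The labels pair no mice across diets. Mice of the same number had deviations correlated at 0.0749 and 0.26, were the closest pairs (distances of 30.5 and 31.8, against 38.4 to 50.5), and were alike in Xist level. The deviations of the first ω-3 mouse correlated more with the third ω-6 mouse, at 0.197. With 2 ω-3 mice their deviations mirror each other, so these correlations are not independent. The third ω-6 mouse has no partner, so the block leaves 1 residual degree of freedom. Vegfa turned to -0.016 under the replicate block and to -0.092 on cell means, and Adipor1 to 0.034 under the block, 0.013 at equal depth and 0.011 with the Xist covariate. With each mouse left out in turn Adipor1 ran from -0.132 to 0.128, Elovl4 from -0.431 to 0.024, Igf1 from -0.826 to 0.165 (the latter without the second ω-3 mouse), Sparc from -0.079 (without the second ω-6 mouse) to 0.424 and Vegfa from -0.04 to 0.214. The RPE share differed by 0.00633 percentage points with cells of over 500 genes, against 0.0101, and the immediate early share by -0.108 to -0.0203 with a mouse left out, against -0.0642. The cause was not tested. On cell means the median of all genes was -0.084. Genes under about 20 UMIs a mouse, such as Ptger3 and Rpe65, are limited by depth.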
